A study of Homo sapiens with 4 samples.

Results

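The genes described here are 10 genes of blood vessel growth and low-oxygen signalling, VEGFA, VEGFB, VEGFC, PGF, ADM, ANGPT2, ANGPTL4, HIF1A, EPAS1 and NDRG1. They were chosen by name, out of 26364 gene symbols in the count table, as angiogenic factors that estrogen raises in the uterus and as hypoxia factors. They were measured by RNA sequencing in Ishikawa cells, a human endometrial adenocarcinoma line, whose estrogen receptor alpha, encoded by ESR1, was mutated at its hormone-binding region (Y537S). There were 2 mutant clones, both kept in hormone-depleted medium without phenol red for at least 5 days, and both were treated for 8 h. The DMSO group received 0.1% DMSO, the vehicle, and the E2 group received 10 nM estradiol (E2), with 1 library of each clone in each group. All 4 libraries therefore share the mutation, no wild-type cells enter any comparison here, and gene counts cannot show the mutation itself. The clones are named by their tags in the column names, A4 and B212; the labels call them clone 1 and clone 2 without these tags.

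Vascular endothelial growth factor A (VEGFA) is the main signal for the growth of blood vessels, and VEGFB, VEGFC and placental growth factor (PGF) are its relatives. In low oxygen the alpha subunits HIF-1alpha (HIF1A) and HIF-2alpha (EPAS1) escape degradation, pair with ARNT and switch on genes such as VEGFA, ADM, ANGPTL4 and NDRG1. Both subunits are controlled mainly at the protein level, so their messages do not report their activity. In the uterus, estrogen raises VEGFA and makes vessels leaky within hours.

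RefSeq promoter windows (GRCh38.p14) were at hand for VEGFB, VEGFC, PGF, ADM, ANGPTL4, HIF1A and EPAS1. The 250 bases before the start site are printed for 2 of them, PGF, which has the lowest fitted log2 fold change with E2 of the genes tested here, and EPAS1, which has the highest fitted log2 fold change of B212 over A4 among them. Capitals mark the estrogen receptor half-site GGTCA and the hypoxia element core, ACGTG or GCGTG, each on either strand.
PGF, chr14:74955765-74956014, minus strand: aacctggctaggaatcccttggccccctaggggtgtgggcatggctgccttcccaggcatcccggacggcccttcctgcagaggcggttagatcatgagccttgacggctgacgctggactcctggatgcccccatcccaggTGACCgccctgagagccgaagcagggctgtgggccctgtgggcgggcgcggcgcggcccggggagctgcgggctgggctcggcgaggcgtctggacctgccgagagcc
EPAS1, chr2:46297157-46297406, plus strand: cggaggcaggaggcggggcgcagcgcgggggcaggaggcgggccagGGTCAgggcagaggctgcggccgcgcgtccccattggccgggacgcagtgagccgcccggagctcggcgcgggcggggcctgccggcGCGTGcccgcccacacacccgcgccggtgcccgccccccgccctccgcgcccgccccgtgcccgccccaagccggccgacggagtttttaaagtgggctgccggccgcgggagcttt
The PGF window, which belongs to the more upstream of 2 start sites, held a half-site and no core, while the window of its other start site held both. The EPAS1 window held 1 of each. Over the 9 windows of these genes (PGF and HIF1A have 2 each), 7 held a core and 5 a half-site, against 43.2% and 32.6% of the 35116 windows of the table cut to the same length. The full estrogen response element, GGTCA and TGACC with 3 bases between, was in 0 of the 9 windows and in 0.0399% of all windows. A match is a description of the letters and not a bound site.

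Per kilobase of transcript, HIF1A, VEGFB and VEGFA stood far above the others. The level is given in CPM (counts scaled to a common library size) per kilobase of the longest coding transcript, as a mean ± SD over the 4 libraries. HIF1A had 62.7 ± 10.5, VEGFB 39.0 ± 3.28 and VEGFA 24.7 ± 5.06 CPM per kilobase, and no library of one overlapped the range of the next. PGF followed at 2.99 ± 1.74, EPAS1 at 1.87 ± 0.839, ADM at 1.21 ± 0.151 and NDRG1 at 0.938 ± 0.356 CPM per kilobase. These 4 could not be ordered beyond their spread, since each neighbour's range overlapped the next. VEGFC had 0.547 ± 0.0116 CPM per kilobase. ANGPTL4 was at 0.0618 ± 0.0173 and ANGPT2 at 0.0202 ± 0.00793 CPM per kilobase, so both were close to undetected. The order depends on which transcript is taken, near the top and below it, and the transcripts in use were not measured. With the median length of each gene's coding transcripts, VEGFA came first at 79.4 CPM per kilobase, HIF1A had 63.3, VEGFB 54.9 and NDRG1 6.05. By that length NDRG1 lay above PGF, at 3.40, and EPAS1, at 3.11 CPM per kilobase.

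**Figure D1:**
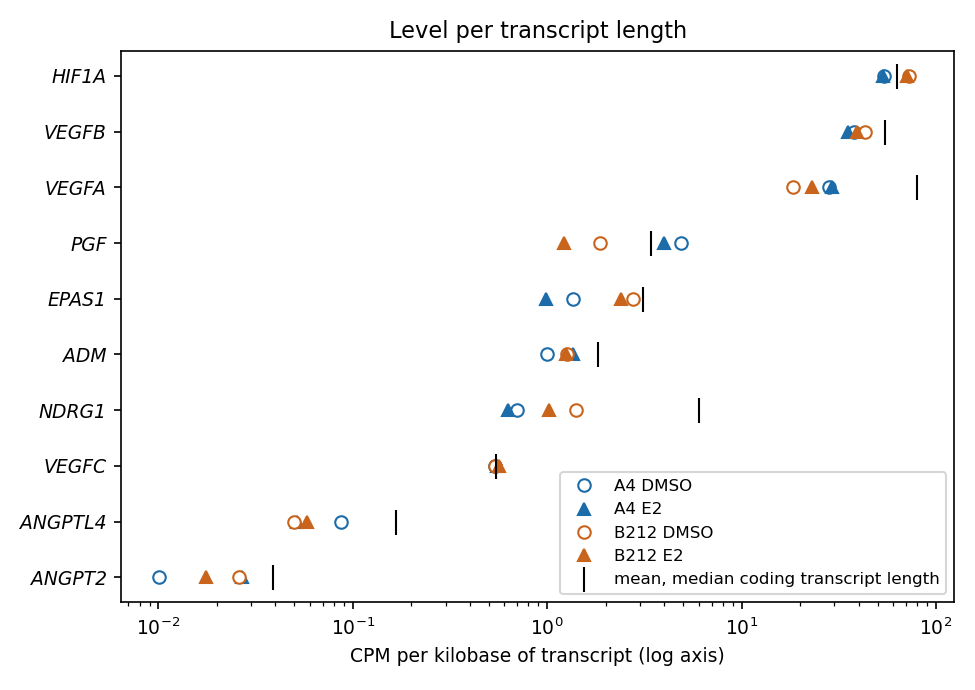
Level of each gene in CPM per kilobase of the longest coding transcript, on a log axis, for the 4 libraries (open circles DMSO, filled triangles E2; blue A4, orange B212). The black bars give the mean with the median coding transcript length; HIF1A is highest by the first length and VEGFA by the second, and ANGPTL4 and ANGPT2 lie lowest by both.

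The libraries held 71575816 to 85222856 counts, and ESR1 had 6342 to 9163 counts in each. All 8 epithelial markers (EPCAM, KRT8, KRT18, KRT19, CDH1, CLDN3, CLDN4 and PAX8) were above 1 CPM in every library, with a summed level of 2263 to 3065 CPM. Of 9 endothelial markers, 2 were above 1 CPM in every library, VWF with 167 to 372 counts and ESAM with 257 to 480. PECAM1 was listed at 0 in every library, CDH5 had 6 to 12 counts and TEK 1 to 3 counts. Their summed level was 7.62 (DMSO) and 6.42 CPM (E2) in A4, and 15.3 and 12.3 CPM in B212, where ERG had 349 and 252 counts against 17 and 15 in A4. The 8 stromal or smooth muscle markers summed to 143 and 107 CPM in A4 and to 58.4 and 48.5 CPM in B212, most of it COL1A1. The 7 immune markers summed to 1.98 to 3.15 CPM, with CD3E and MS4A1 listed at 0 throughout. The part of these markers in the results below was not tested. In bulk RNA, fewer cells of a kind and less RNA per cell cannot be told apart.

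The first comparison asked how the mutant cells responded to E2. Without the clone as a block, none of the 9 genes tested passed the threshold: edgeR's quasi-likelihood test called 0 of the 15599 genes tested (0%) after Benjamini-Hochberg adjustment (threshold 0.05), with 150 at an unadjusted p under 0.05, and DESeq2 called 1 gene, none of those described here. With the clone as a block, PGF fell, 1 of 9 genes, where 9.56% of all genes were called with 6.13% called higher and 3.44% lower. The direction was up for 4 and down for 5 of the 9 in both fits. Their median log2 fold change was -0.029 without the block and -0.026 with it, beside -0.0081 for all genes in each fit. With the block and a smooth trend on GC content and transcript length taken out, it was -0.13, beside -0.013 for all genes. ANGPTL4, at 8 to 12 counts, did not pass the filter on low counts and is given by its counts alone.

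PGF, a ligand of the receptor FLT1, was lower with E2 in both clones. It had 690 counts with DMSO and 633 with E2 in A4, and 307 and 172 counts in B212. In CPM this was 9.42 to 7.72 in A4 and 3.60 to 2.35 in B212. The treatment groups overlapped, because both A4 libraries lay above both B212 libraries. Within A4 the log2 fold change was -0.29 (95% counting interval -0.45 to -0.13), and within B212 it was -0.62 (-0.89 to -0.34). These intervals, from the counts of 2 libraries, cover counting error only. With the clone as a block the log2 fold change was -0.42 ± 0.13 (SE), a 1.34-fold lower level, with an adjusted p of 0.0418 by edgeR's quasi-likelihood test. Without the block it was -0.37 ± 0.76, with an adjusted p of 0.9999. The call with the block did not hold with DESeq2 size factors in edgeR (adjusted p 0.0710), limma-voom (0.0797) or the length and GC trend removed (0.0841), and DESeq2 gave it no adjusted p. It held with library size alone as the scaling (edgeR adjusted p 0.0207) and with no filter on low counts (0.0122).

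VEGFA had 7318 counts with DMSO and 8459 with E2 in A4, and 5514 and 5952 counts in B212. In CPM it was 99.9 and 103 in A4 and 64.6 and 81.2 in B212, so B212 with E2 stayed below both A4 libraries. Within A4 the log2 fold change was 0.045 (95% counting interval 3.4e-05 to 0.091), and within B212 it was 0.33 (0.28 to 0.38). The difference between the clones, 0.28, had a counting interval of 0.21 to 0.35, which holds no spread between cultures. With the clone as a block VEGFA was at 0.19 ± 0.076 (log2 fold change ± SE) and did not pass the threshold (edgeR adjusted p 0.130). Only with the length and GC trend removed did VEGFA pass the threshold, at 0.24 ± 0.061 in log2 units (edgeR adjusted p 0.0413). That fit called 4.25% of all genes, 2.67% higher and 1.58% lower. The transcript taken for VEGFA has 3535 bases and a GC content of 51.3%, and the one for PGF 1927 bases and 64.5%.

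The other relatives had values near 0 or below the threshold. VEGFB, a ligand of FLT1 with little effect on vessel growth of its own, had 3844 counts with DMSO and 4011 with E2 in A4, and 5102 and 3949 counts in B212. Within A4 its log2 fold change was -0.10 (95% counting interval -0.17 to -0.038), within B212 -0.15 (-0.21 to -0.090), and -0.13 ± 0.074 with the block (edgeR adjusted p 0.299). VEGFC, the growth factor of lymphatic vessels, had 81 and 93 counts in A4 and 95 and 85 in B212. It was the only gene of the 9 whose DMSO and E2 libraries did not overlap in CPM, at 1.11 and 1.11 against 1.13 and 1.16, where 25.0% of all genes tested did not. Its log2 fold change with the block was 0.047 ± 0.22 (edgeR adjusted p 0.919), and that gap in CPM is far within the counting error of fewer than 100 counts a library.

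The vasoactive peptides and vessel-remodelling factors were scarce. ADM, which encodes the vessel-widening peptide adrenomedullin, had 138 counts with DMSO and 209 with E2 in A4, and 203 and 173 counts in B212. In CPM the A4 DMSO library was low, at 1.88, and the other three lay between 2.36 and 2.55. Within A4 its log2 fold change was 0.44 (95% counting interval 0.12 to 0.76), within B212 -0.011 (-0.31 to 0.29), and 0.21 ± 0.17 with the block (edgeR adjusted p 0.482). ANGPT2, the angiopoietin that loosens vessel walls, had 4 and 12 counts in A4 and 12 and 7 in B212. It overlaps MCPH1, which had 3159 to 3939 counts; the strand setting of the counting is not given in the sources used here, so its few counts cannot be assigned with certainty. ANGPTL4, a secreted inhibitor of lipoprotein lipase, had 12 and 8 counts in A4 and 8 and 8 in B212. Neither of these 2 genes had a change that was detectable at this depth.

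None of HIF1A, EPAS1 and NDRG1 passed the threshold for E2, with log2 fold changes near or below 0. HIF1A had 15563 and 17370 counts in A4 and 24601 and 20467 in B212. Within A4 its log2 fold change was -0.0052, within B212 -0.046, and -0.026 ± 0.069 with the block (edgeR adjusted p 0.857). Once the length and GC trend was taken out, it was -0.13 ± 0.056 (edgeR adjusted p 0.211). Its antisense genes HIF1A-AS1 and HIF1A-AS2 had at most 9 counts in a library. EPAS1 had 513 counts with DMSO and 418 with E2 in A4, and 1217 and 907 counts in B212, or went from 7.005 to 5.10 CPM and from 14.3 to 12.4 CPM. Within A4 its log2 fold change was -0.46 (95% counting interval -0.65 to -0.27), within B212 -0.20 (-0.33 to -0.079) and -0.32 ± 0.11 with the block. That did not pass the threshold (edgeR adjusted p 0.0673), but did with library size alone as the scaling (0.0452) and with no filter on low counts (0.0324). It did not with DESeq2 size factors in edgeR (0.0916), with limma-voom (0.105) and once the length and GC trend was taken out, at -0.21 ± 0.092 (edgeR adjusted p 0.211). NDRG1, a stress-responsive gene induced by hypoxia, had 193 and 193 counts in A4 and 451 and 280 in B212, with a log2 fold change of -0.33 ± 0.14 with the block (edgeR adjusted p 0.155). Both E2 libraries of EPAS1 and NDRG1 were below the DMSO library of their own clone in CPM. For NDRG1 the log2 fold change within A4 was -0.16, with a 95% counting interval of -0.46 to 0.13 that includes 0. Within B212 it was -0.47 (-0.69 to -0.25).

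**Figure D2:**
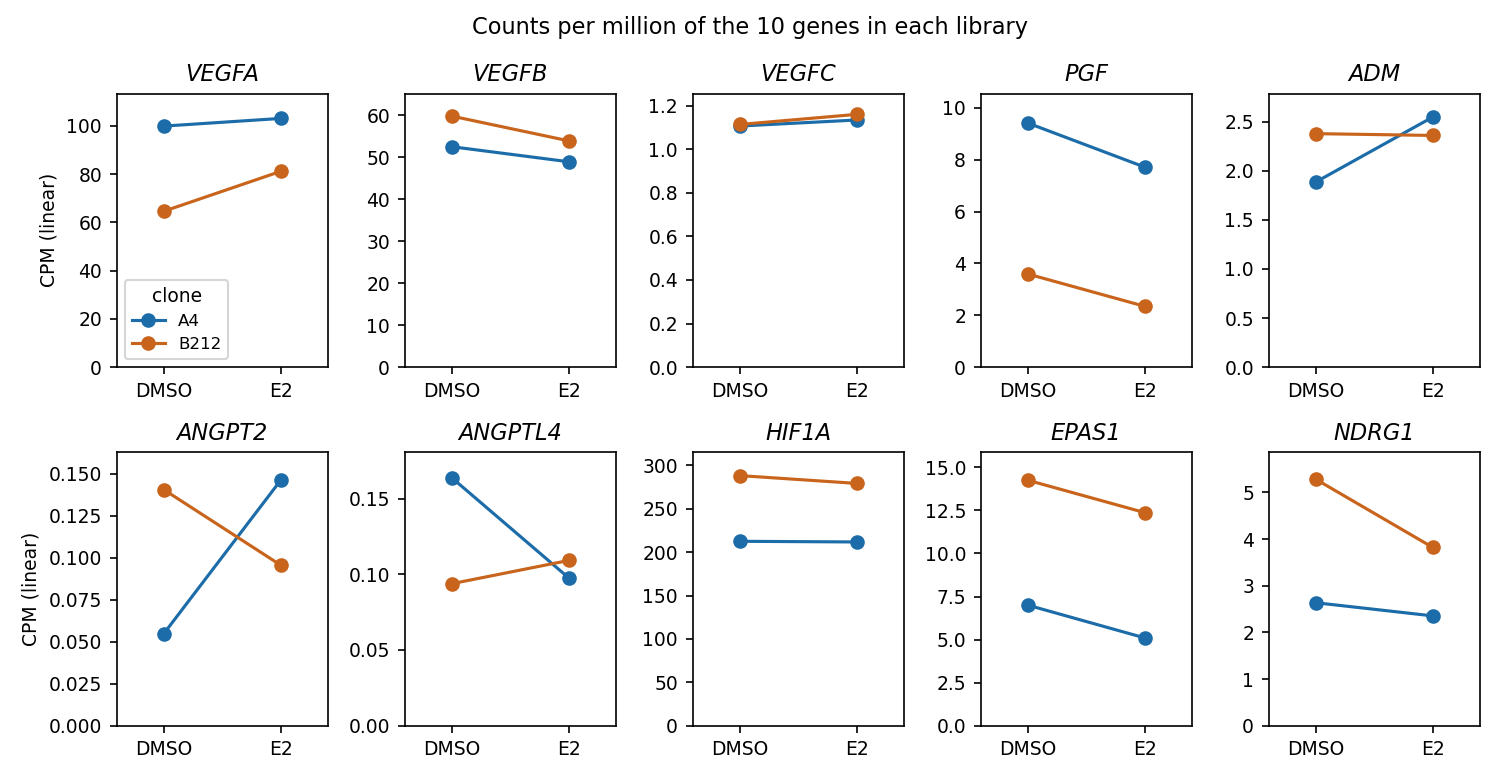
CPM of the 10 genes in each library (blue A4, orange B212; lines join the 2 libraries of a clone; each axis starts at 0). PGF and EPAS1 fall from DMSO to E2 in both clones, VEGFA rises from 64.6 to 81.2 CPM in B212 and stays near 100 in A4, and the lines of ADM, ANGPT2 and ANGPTL4 cross.

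**Figure D3:**
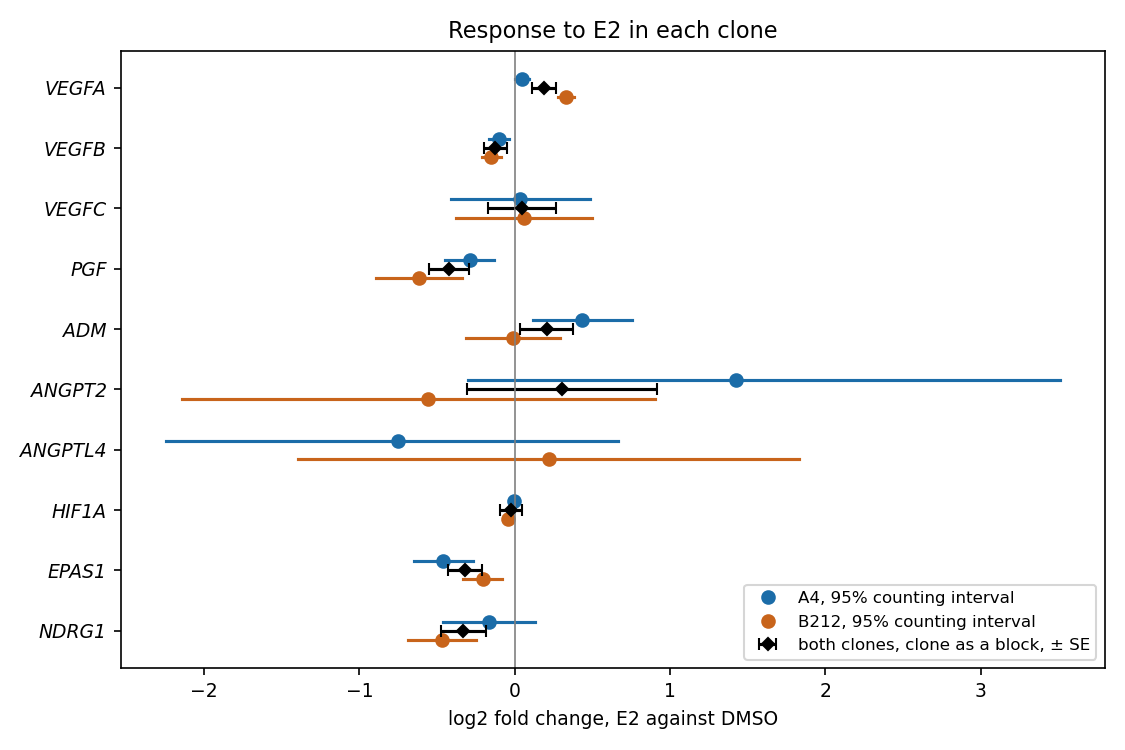
Log2 fold change of E2 against DMSO for each gene in A4 (blue) and B212 (orange) with 95% intervals of counting error, and in both clones with the clone as a block (black diamonds, ± SE; none for ANGPTL4, which was not tested). The PGF intervals lie below 0 in both clones, and those of ANGPT2 and ANGPTL4 span more than 2 units on the log2 scale.

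Other genes of these pathways were taken from lists, whose counts are to be read beside the 6.13% of all genes called higher and 3.44% called lower in the fit with the block. With the clone as a block, E2 lowered 2 of the 6 tested genes among other angiogenic ligands and TIE receptors. PDGFB, a platelet-derived growth factor chain that recruits vessel-supporting cells, had 5853 counts with DMSO and 4783 with E2 in A4, and 2825 and 1719 counts in B212, and fell by 0.48 ± 0.076 on the log2 scale (edgeR adjusted p 0.00112). PDGFA, the other classical chain, fell by 0.33 ± 0.076 (edgeR adjusted p 0.0113). Of 11 tested HIF partners and oxygen sensors, 2 rose, RBX1 by 0.40 ± 0.078 and TCEB1 (elongin C) by 0.29 ± 0.073 on the log2 scale (edgeR adjusted p 0.00438 and 0.0175). Both are subunits of the ubiquitin ligase that marks HIF alpha subunits for degradation. Of 22 tested HIF target genes, 2 rose and 0 fell: BNIP3, a mitophagy receptor, by 0.42 ± 0.089 and PGK1, a glycolytic enzyme, by 0.27 ± 0.074 (edgeR adjusted p 0.00710 and 0.0278). All 6 kept their calls with the length and GC trend removed, where RBX1 was at 0.25 ± 0.058. PGK1 lost its call with DESeq2 size factors (edgeR adjusted p 0.0636) and in DESeq2 (adjusted p 0.0542), and TCEB1 lost it in DESeq2 (adjusted p 0.0597). None of the 5 VEGF receptors and co-receptors, 5 genes of the adrenomedullin list or 3 other NDRG genes was called. Without the block none of these genes was called, as for all genes. Among the markers, 1 of 5 stromal genes tested (COL1A1), 2 of 5 endothelial genes (VWF and CLDN5) and 2 of 8 epithelial genes (KRT18 and PAX8) were also lower with E2 in the fit with the block; of these KRT18 alone was still called with the trend removed. Their part in these results was not tested.

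The second comparison asked how the clones differed, with treatment as a term. It compares 2 clones only, and whether their libraries were made in separate batches is not given in the sources used here. Of the 9 genes tested, 5 passed the threshold: EPAS1, NDRG1 and HIF1A were higher and PGF and VEGFA lower in B212. That is set beside 51.0% of all genes tested, 25.2% higher and 25.8% lower, so the count lies near the share of all genes. Among the markers, 6 of 8 epithelial and 5 of 5 tested endothelial genes were higher in B212 and 3 of 5 stromal genes lower. Only those 5 of the 9 endothelial markers passed the filter on low counts. CLDN5, with 9 and 3 counts in A4 and 40 and 11 in B212, passed it through B212 alone, so its call is not read as a result. The median log2 fold change of the 9 was 0.16, beside 0.0042 for all genes. The clone groups did not overlap in CPM for 6 of the 9 genes, the 5 called and VEGFB, against 67.5% of all genes. When only library sizes were used for scaling, the calls over all genes were 4761 higher and 3176 lower, in place of 3927 and 4023, and the median of all genes moved to 0.071. With the length and GC trend removed they were 3629 higher and 5303 lower, and that median was -0.054.

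EPAS1 averaged 6.05 ± 1.35 CPM in A4 and 13.3 ± 1.33 CPM in B212 (SD, n = 2). The 2 libraries of a clone are 1 DMSO and 1 E2 library. This SD and the clone SDs that follow therefore hold the treatment difference and are not a spread between replicates. EPAS1 was higher in B212 by 1.15 ± 0.11 on the log2 scale (SE), 2.22-fold, with an adjusted p of 3.23e-08 by edgeR's quasi-likelihood test. The difference was 1.03 between the DMSO libraries and 1.28 between the E2 libraries. HIF1A averaged 212.1 ± 0.542 CPM in A4 and 284 ± 6.39 CPM in B212, a log2 fold change of 0.42 ± 0.070 (edgeR adjusted p 4.56e-05). Once the length and GC trend was taken out, it was 0.26 ± 0.056 (edgeR adjusted p 0.00108). NDRG1 averaged 2.49 ± 0.200 and 4.55 ± 1.04 CPM, a log2 fold change of 0.86 ± 0.15 (edgeR adjusted p 5.94e-05). All 3 were thus higher in both B212 libraries than in both A4 libraries.

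PGF and VEGFA went the other way. PGF averaged 8.57 ± 1.21 CPM in A4 and 2.97 ± 0.884 CPM in B212, and was 2.91-fold lower in B212 (log2 fold change -1.54 ± 0.13, edgeR adjusted p 5.53e-09). VEGFA averaged 102 ± 2.26 and 72.9 ± 11.7 CPM, with a log2 fold change of -0.49 ± 0.076 (edgeR adjusted p 2.48e-05). The VEGFA difference was -0.63 between the DMSO libraries and -0.34 between the E2 libraries. VEGFB, at 50.7 ± 2.54 and 56.8 ± 4.18 CPM, did not pass the threshold (log2 fold change 0.16 ± 0.074, edgeR adjusted p 0.0710), but did with library size alone as the scaling (0.0142). VEGFC, ADM and ANGPT2 had log2 fold changes of 0.021, 0.11 and 0.25, each smaller than its SE. With the B212 DMSO library left out, in a fit with no treatment term, EPAS1 and PGF kept their calls. VEGFA was then at -0.35 ± 0.18, HIF1A at 0.37 ± 0.19 and NDRG1 at 0.59 ± 0.23, and none of these 3 passed the threshold (edgeR adjusted p 0.200, 0.172 and 0.0694). HIF1A also lost its call without the B212 E2 library, at 0.44 ± 0.20 (edgeR adjusted p 0.0933). In these fits B212 is a single library, which is assumed to vary like those of A4.

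Of 5 VEGF receptors and co-receptors, which had 2 to 172 counts a library, 1 was higher and 3 were lower in B212. These and the following counts are to be read beside the 25.2% of all genes called higher and 25.8% called lower. NRP1, a co-receptor of VEGFA, had 77 and 126 counts in A4 and 2 and 5 in B212, so that it passed the filter on low counts through A4 alone. Its place among the 3 called lower is therefore not read as a result. FLT1, which binds VEGFA, VEGFB and PGF, had 55 and 53 counts in A4 and 33 and 18 in B212, a log2 fold change of -1.15 ± 0.32 (edgeR adjusted p 0.00498). KDR, the main signalling receptor of VEGFA, had 21 and 16 counts in A4 and 52 and 35 in B212, a log2 fold change of 1.17 ± 0.35 (edgeR adjusted p 0.00839). Of the 5 genes on the adrenomedullin list only CALCRL was called. It had 449 and 500 counts in A4 and 956 and 889 in B212 (log2 fold change 0.93 ± 0.11, edgeR adjusted p 5.24e-07). On the same list, RAMP1 had 284 to 351 counts a library, RAMP2 13 to 27 and RAMP3 7 to 20, and none of them was called. Of the 6 other angiogenic ligands tested, 4 were lower and 0 higher. The 2 of lowest p-value were PDGFB at -1.29 ± 0.077 and PDGFA at -0.77 ± 0.076 on the log2 scale; EDN1, named after its values were seen, had the lowest log2 fold change, -1.98 ± 0.28, from 110 and 85 counts in A4 and 35 and 17 in B212.

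The HIF machinery and its targets did not move one way. Of 11 partners and oxygen sensors tested, 4 were higher in B212. The 2 of lowest p-value were ARNT2, a partner of HIF alpha subunits, at 0.67 ± 0.093, and VHL, which recognises them for degradation, at 0.32 ± 0.071 on the log2 scale; HIF3A, named after its values were seen, was higher still, at 0.83 ± 0.26. The 2 called lower were RBX1 at -0.33 ± 0.078 and TCEB1 at -0.19 ± 0.073. Of 22 HIF target genes tested, 12 were lower, 4 higher and 6 not called, with a median log2 fold change of -0.38 beside 0.0042 for all genes. LOX, a collagen cross-linking enzyme, had 5213 and 5457 counts in A4 and 1312 and 889 in B212 and was lower by 5.03-fold. SLC2A1, the glucose transporter GLUT1, had 26281 and 26503 counts in A4 and 9907 and 7524 in B212 and was lower by 3.12-fold. The others called lower, listed to complete the count, were SLC2A3, LDHA, HK2, ENO1, ALDOA, PFKFB4, PDK1, PGK1, DDIT4 and ALDOC, 8 of them enzymes of glycolysis or its control. SLC2A3 had 36 and 58 counts in A4 and 9 and 2 in B212. It passed the filter on low counts through A4 alone, so its place among the 12 is not read as a result. The median also includes SLC2A3. BNIP3 and BNIP3L, both mitophagy receptors, were higher, at 0.68 ± 0.090 and 0.43 ± 0.072 on the log2 scale. VEGFA was thus lower in B212, as were 12 of the 22 listed targets tested, with SLC2A3 counted among the 12. The messages of HIF1A, EPAS1 and the target NDRG1 were higher.

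**Figure D4:**
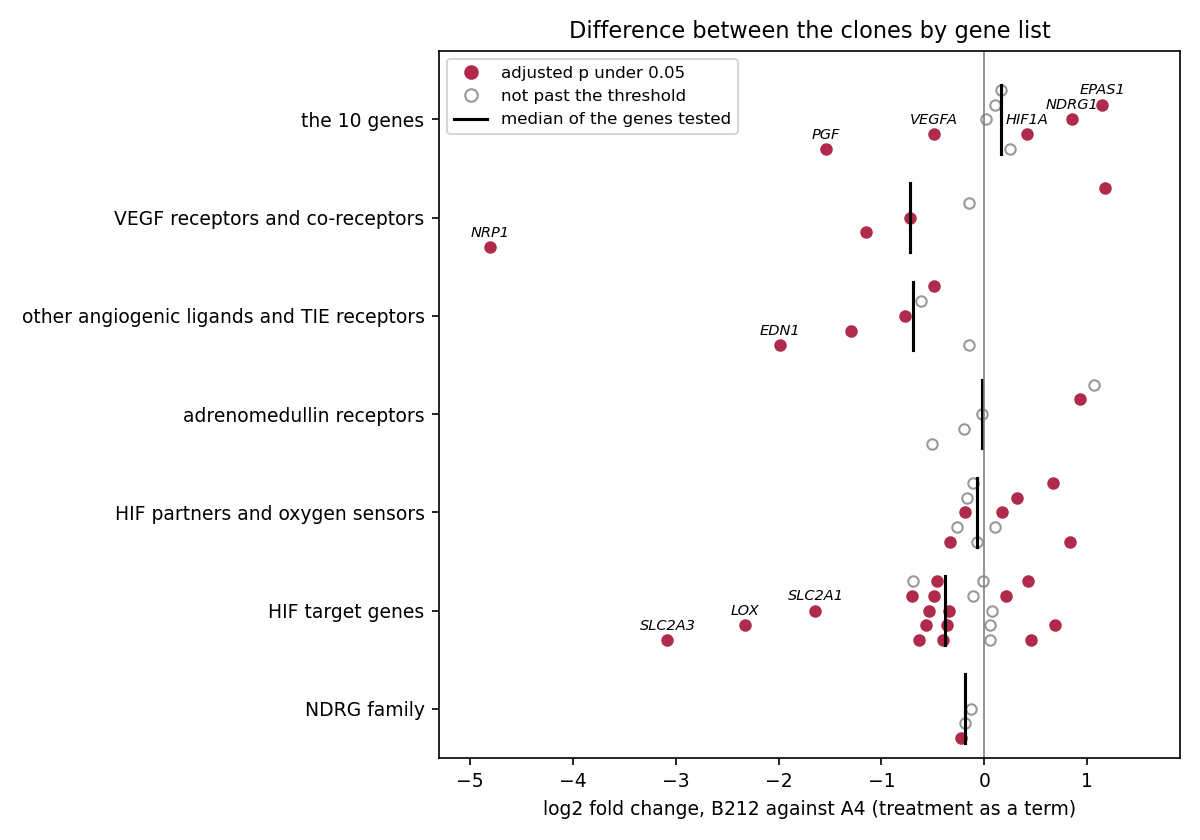
Log2 fold change of B212 against A4 with treatment as a term, by gene list; filled points are past an adjusted p of 0.05, open points are not, and black bars are medians of the genes tested. Of the 10 genes, EPAS1, NDRG1 and HIF1A lie to the right and PGF and VEGFA to the left, and 12 of 22 HIF target genes are called lower. NRP1 and SLC2A3 passed the filter on low counts through A4 alone.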

How the data were processed

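The deposited table holds raw read counts per gene symbol, made by the authors from poly(A)-selected stranded libraries, per the labels' protocols. The submitters' processing notes name HISAT2, SAMtools, featureCounts, DESeq2 and the build hg19; the annotation and the strand setting are not given in the sources used here. Columns were matched to DMSO or E2 by name, and 4 further value columns that match no sample here were not used.

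Genes passing edgeR's filterByExpr (minimum count 10) were scaled by TMM and tested with edgeR 4.0.16 quasi-likelihood fits in R 4.3.3, two-sided, with Benjamini-Hochberg adjustment over all 15599 genes and a threshold of 0.05. E2 against DMSO was fitted without a block, and with the clone as a block. Libraries of the same clone deviated together (r = 0.871 across genes), and the pairing comes from the clone tags in the column names. With 2 libraries a group and no record of separate cultures, p-values measure the spread between these libraries only. Without the block, that spread holds the difference between the clones. With clone and treatment both fitted, it is the remainder, which edgeR steadies with the spread of other genes. That remainder may be technical or a response to E2 that differs between the clones, since each clone has 1 library of each treatment. Counting intervals are exact binomial intervals at 95%.

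Alternatives used limma 3.58.1, DESeq2 1.42.0 and, for the trend on length and GC content, mgcv 1.9.3 with GENCODE 29 transcripts, found for 97.1% of the genes tested. The look-up of older symbols was improved, and the promoter window was limited to bases before the start site, after results had been seen. The fits were tested on simulated data. The genes and lists were chosen with earlier results of these data known. All 10 genes are named, and from each other list the 2 called genes of lowest p-value, higher and lower. A listed gene is not reported here and was left out of its list's counts and median.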

Additional observations from a re-analysis of the deposited data

Results flagged for a closer look

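For the 5 genes given here, the single E2 library lay above its DMSO library in 1 clone and below it in the other. They are not all such genes: ALDOC (log2 fold change 0.23 in A4 and -0.31 in B212), ENO1, SLC2A3 and RAMP2 also went opposite ways. The share of all genes that did so is not given here. With 1 library of each clone and treatment, the difference between the clones was not tested over cultures. The log2 fold change of ADM was 0.44 for A4 and -0.011 for B212, which differ by -0.45 with a counting interval of -0.87 to -0.020. ANGPT2 had 1.42 in A4 and -0.56 in B212, from 4 to 12 counts, and the interval of its difference, -4.09 to 0.14, includes 0. ANGPTL4 had -0.75 in A4 and 0.22 in B212, from 8 to 12 counts, with an interval of -0.95 to 2.88 for the difference. CALCRL, from the adrenomedullin list, had -0.0085 in A4 and 0.11 in B212. BNIP3L had 0.18 in A4 and -0.028 in B212.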

How the results depend on the processing

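The number of genes called for E2 depended on the replicate block: 0 without it by edgeR and 1 by DESeq2, and with the clone as a block 1492. With the block it was 717 with DESeq2 size factors, 1686 with library size only, 562 in DESeq2, 1138 in limma-voom, 663 with the length and GC trend removed and 1770 with no filter. Of the 9 genes described here, the block gave 1 call, library size only 2, the trend removed 1 and no filter 2; DESeq2 with the block gave no adjusted p for 6 of them. With library size only the calls with the block were 911 higher and 775 lower, in place of 956 and 536. The fit with the block and no filter, the trend in the clone comparison, the counts of calls in the fits that leave out a library and library size only within clones were added after seeing the data. The cause of these differences was not tested.

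Leaving out 1 library at a time, in fits without the block, unbalances the clones. The median for E2 then ran from -0.21 to 0.21, and 11 of 36 values changed sign. The ranges were -0.11 to 0.51 for VEGFA, -1.49 to 0.48 for PGF, -0.21 to 1.13 for ANGPT2, -0.24 to 0.21 for HIF1A, -1.06 to 0.31 for EPAS1 and -0.78 to 0.22 for NDRG1.

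For the clones, 5538 genes were called in DESeq2, 8932 with the length and GC trend removed and 4456 with no treatment term, and 3094 to 5639 with a library left out, with 2 to 5 of the 9 genes called. VEGFC went to -0.00096 with no filter. With a library left out VEGFC ran from -0.0091 to 0.030, ADM from -0.10 to 0.32 and ANGPT2 from -0.29 to 1.10. Counts of 4 to 12 limit ANGPT2 and ANGPTL4.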

Other observations

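Among 12482 other genes with a mean of at least 100 counts, the 3 whose log2 CPM over the 4 libraries, centred on their own mean, lay nearest to VEGFA were SNHG17, VDAC1 and C3orf52, at Euclidean distances of 0.055, 0.066 and 0.095. SNHG17, a host gene of small nucleolar RNAs, had 922 and 1061 counts in A4 (DMSO and E2) and 663 and 725 in B212. VDAC1, a channel of the outer mitochondrial membrane, had 20392 and 24768 counts in A4 and 16263 and 16927 in B212. With 4 libraries such likeness is a description only.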
